A study of Homo sapiens with 16 samples.

Results

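Polyamine metabolism was followed through 8 genes in MCF10A cells treated with the HER2 kinase inhibitor CP724,714. These were the synthesis enzymes ODC1, AMD1, SRM and SMS, the antizymes OAZ1 and OAZ2, the antizyme inhibitor AZIN1 and the acetylating enzyme SAT1. Selecting the rows of the deposited table by these symbols gave 8 rows for 7 of the genes, with separate probes for AMD1. SAT1 was not in the table under its current symbol and was read from 1 row under its older symbol SAT, which RefSeq lists as a synonym of SAT1 and of no other gene. The 9 rows stood against 20589 rows and 18190 symbols in the whole table. All 9 passed the detection filter and were among the 11957 rows tested. Of the 9 rows, 8 held the values of a single probe, and that of AZIN1 combined several probes.

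MCF10A is an established, nontransformed human mammary epithelial line that depends on EGF and insulin, and both were in the medium of every culture together with hydrocortisone. Parallel plates were harvested every 3 hours from 0 to 45 hours after the inhibitor was added at 1 µM, and the plate of 0 hours was untreated. Each of the 16 time points had 1 array (Illumina human Ref8v2), so no condition was replicated. The medium was renewed when the inhibitor was added and untreated cultures were not followed in parallel here, so the inhibitor, fresh medium and time in culture cannot be told apart.

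Polyamines (putrescine, spermidine and spermine) are small positively charged molecules that bind nucleic acids and are needed for translation and proliferation. Ornithine decarboxylase, encoded by ODC1, makes putrescine from ornithine. AMD1 makes decarboxylated S-adenosylmethionine, the donor with which spermidine synthase (SRM) and spermine synthase (SMS) lengthen the chain. Antizymes, which are translated through a frameshift promoted by polyamines, bind ornithine decarboxylase and send it to the proteasome, and antizyme inhibitor resembles the enzyme without its activity and takes up antizyme. Spermidine/spermine acetyltransferase (SAT1) marks polyamines for export or oxidation. Much of this control acts on translation and protein stability, which an RNA array does not measure.

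The array medians lay between 210 and 254 intensity units before normalization, and each array detected 10325 to 10889 rows (50.1% to 52.9%) above background. Levels below are log2 intensities after background correction, an offset of 16 and quantile normalization. With 1 array for each time, precision is set by how many arrays there are. Of the 9 basal-like mammary epithelial markers, 7 were above background on all 16 arrays, among them KRT5, KRT17, EPCAM and ITGB4, whereas KRT14 was above background on 1 array and TP63 on 10. The markers of luminal hormone receptor cells, ESR1 and PGR, and the collagens COL1A1, COL1A2 and COL3A1 were above background on 0 arrays, as were CDH5 and VWF of endothelial cells and CD3D of T cells, while DCN was above background on 5 arrays, PTPRC on 5, CD14 on 12 and PECAM1 on 15. In limma fits over all 11957 tested rows, the higher rows were 51.2% of those called for 12 to 21 against 0 to 9 hours, 50.8% for 36 to 45 against 24 to 33 hours, 53.6% for 6 to 9 against 0 to 3 hours and 51.8% for 36 to 45 against 0 to 9 hours. With median scaling of the arrays these shares were 73.2%, 36.9%, 64% and 73.1%.

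Expression of the polyamine genes changed over the series. When a smooth curve (a natural cubic spline) was fitted over time with limma, 8 of the 9 rows were time-dependent with an adjusted p under 0.05, and the exception was OAZ1 (adjusted p = 0.27). The background was high, since 54.7% of all tested rows were time-dependent. Adjusted p-values for the other genes ranged from 7.2e-07 for AZIN1 and 1.1e-06 for SRM, through 8.4e-06 for ODC1 and 1.1e-05 for SAT1, to 0.017 for SMS. In RNA of whole cultures, fewer cells of a kind and less transcript per cell cannot be told apart. The call for SMS was lost without the 0 hour array (adjusted p = 0.056, limma).

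**Figure D1:**
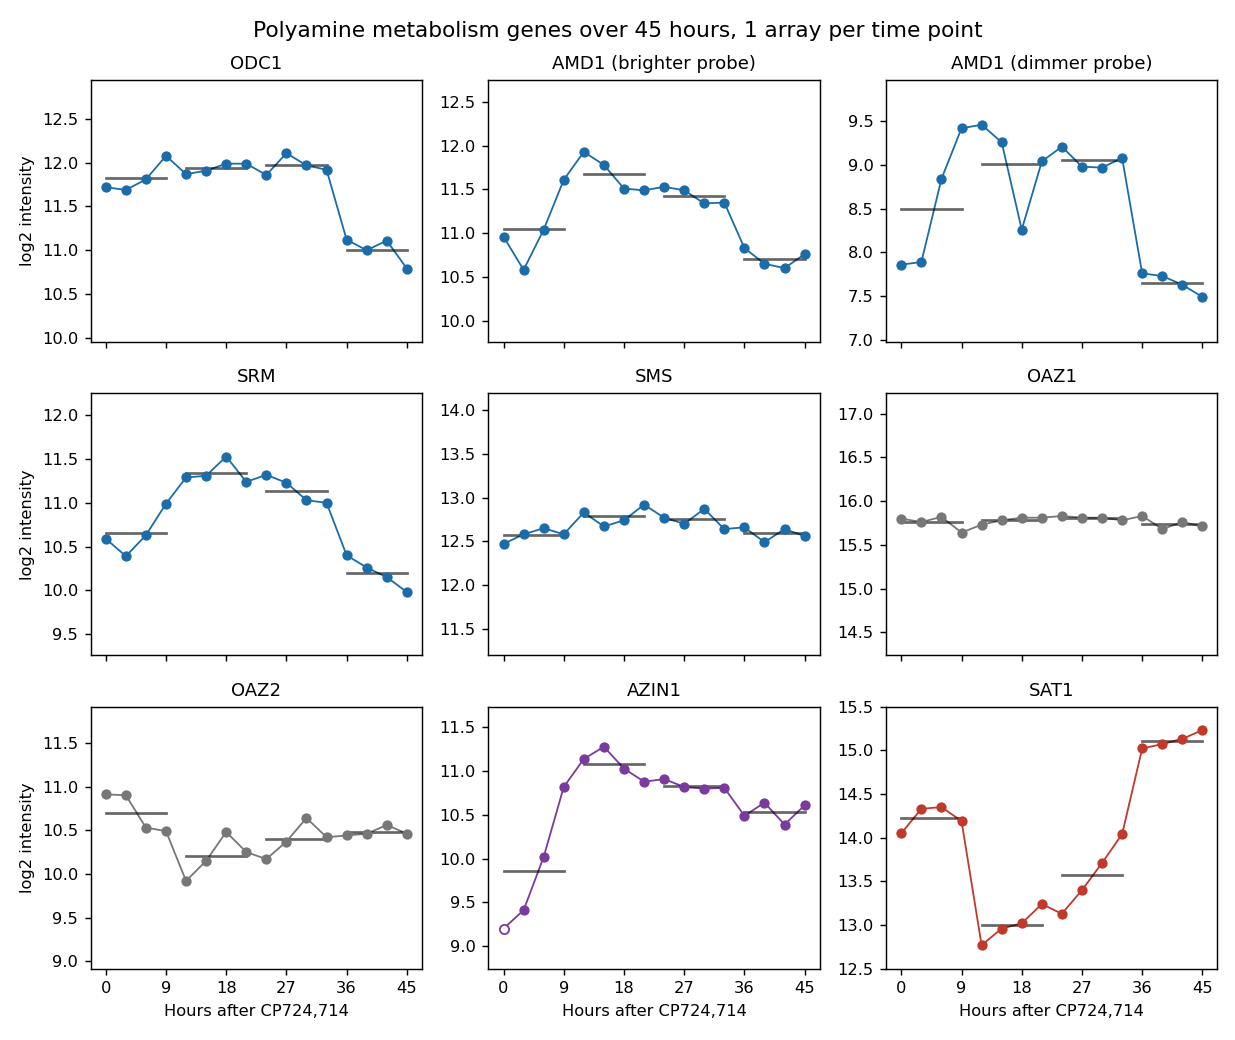
log2 intensity of the 9 rows against hours, with 1 array per point, the open circle marking the array on which a row was not above background, black lines marking the means of 4 time points, and every panel spanning 3 log2 units. ODC1, AMD1 and SRM dropped at 36 hours, the time at which SAT1 rose, and AZIN1 climbed between 0 and 12 hours.

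ODC1, the enzyme of the first committed step, kept its level for 33 hours and then dropped. Its log2 intensity was 11.72, 11.69, 11.81 and 12.08 at 0, 3, 6 and 9 hours. It was 11.87, 11.91, 11.99 and 11.99 at 12, 15, 18 and 21 hours, and 11.86, 12.11, 11.97 and 11.92 at 24, 27, 30 and 33 hours. At 36, 39, 42 and 45 hours it was 11.12, 11.00, 11.11 and 10.79. The last 4 arrays were all below the lowest of the other 12. Its maximum (27 hours) exceeded its minimum (45 hours) 2.49-fold, with deposited intensities of 1749 to 5268. From 33 to 36 hours ODC1 fell by 0.80 on the log2 scale, its largest step, and 5.56% of all tested rows had as large a step between these arrays.

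SRM, which makes spermidine, first rose and then fell below its starting level. Its log2 intensity was 10.59, 10.39, 10.63 and 10.99 at 0, 3, 6 and 9 hours, and 11.29, 11.31, 11.53 and 11.24 at 12, 15, 18 and 21 hours. It was 11.32, 11.23, 11.03 and 11.00 at 24, 27, 30 and 33 hours, and 10.40, 10.26, 10.15 and 9.98 at 36, 39, 42 and 45 hours. The arrays of 12 to 33 hours were all above those of the first 9 hours, though at 33 hours (11.00) barely above 9 hours (10.99). The levels declined from 24 to 45 hours with no array above the one before it. Its maximum (18 hours) exceeded its minimum (45 hours) 2.93-fold.

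AMD1 was measured by a brighter and a dimmer probe, whose courses had a correlation of 0.90 over the 16 arrays. On the brighter probe, the log2 intensity was 10.96, 10.58, 11.04 and 11.61 at 0, 3, 6 and 9 hours and 11.93, 11.78, 11.51 and 11.49 at 12, 15, 18 and 21 hours. It was 11.53, 11.49, 11.34 and 11.35 at 24, 27, 30 and 33 hours and 10.83, 10.65, 10.60 and 10.76 at 36, 39, 42 and 45 hours. The peak at 12 hours was 2.54-fold above the trough at 3 hours, and the last 4 arrays lay between these. The dimmer probe also peaked at 12 hours (9.46) and had its lowest level at 45 hours (7.49), a ratio of 3.92. It dipped to 8.26 at 18 hours, where the brighter probe stood at 11.51. The probes therefore agree on the rise and on the late drop and differ at 18 hours.

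SMS, which makes spermine, varied least among the synthesis enzymes. Its mean log2 intensity over 0 to 9 hours was 12.57 ± 0.07 (SD over 4 time points), and the means of the later windows were 12.79 ± 0.10 (12 to 21 hours), 12.75 ± 0.10 (24 to 33 hours) and 12.59 ± 0.08 (36 to 45 hours). The highest of its 16 arrays was 1.36-fold above the lowest.

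SAT1, the enzyme of polyamine acetylation, had the widest measured range of the 9 rows. Its course ran opposite to that of SRM (correlation -0.95 over the 16 arrays). With the brighter AMD1 probe the correlation was -0.88, with the dimmer one -0.76 and with SMS -0.65. With ODC1, which kept its level until 33 hours, it was -0.82. Its log2 intensity was 14.05, 14.33, 14.35 and 14.19 at 0, 3, 6 and 9 hours, and 12.77, 12.96, 13.02 and 13.24 at 12, 15, 18 and 21 hours. It climbed through 13.13, 13.40, 13.71 and 14.04 at 24, 27, 30 and 33 hours to 15.02, 15.07, 15.13 and 15.23 at 36, 39, 42 and 45 hours. The arrays of 12 to 30 hours were all below those of the first 9 hours, and the last 4 arrays were all above every other array. At 33 hours the level (14.04) was about that of 0 hours (14.05), and its deposited intensity was higher (17442 against 16822). Its maximum (45 hours) exceeded its minimum (12 hours) 5.49-fold, with deposited intensities of 7030 to 36256. The fall of 1.42 from 9 to 12 hours was matched or exceeded in size by 0.577% of all tested rows at that step, and the rise of 0.99 from 33 to 36 hours by 2.62%. Before that rise SAT1 gained 0.27, 0.31 and 0.33 over the steps from 24 to 33 hours.

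**Figure D2:**
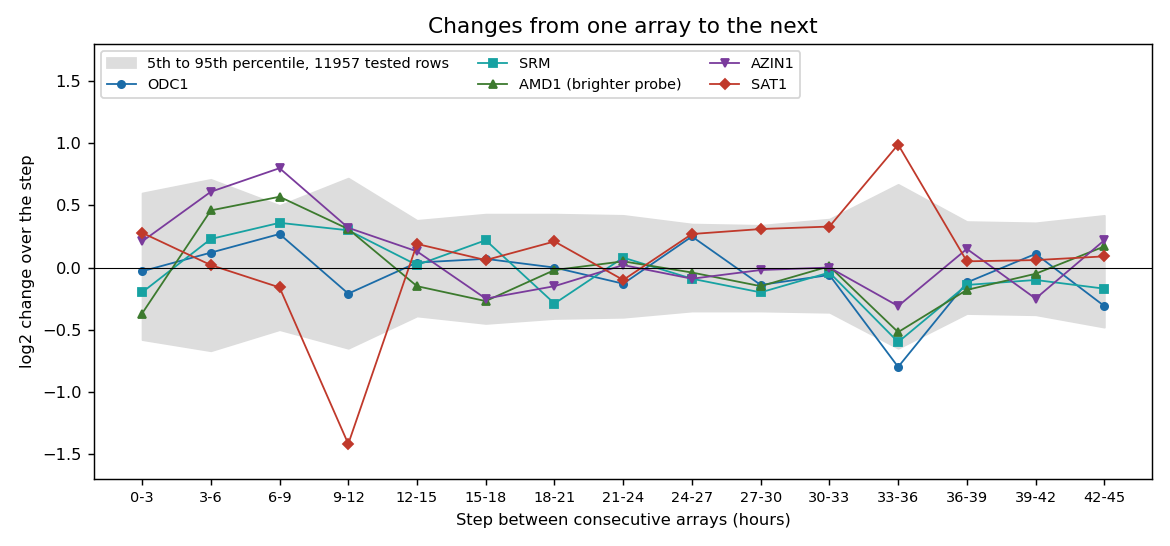
log2 change from one array to the next for 5 rows, with the grey band spanning the 5th to the 95th percentile of all 11957 tested rows at each step. SAT1 left the band downwards from 9 to 12 hours (-1.42) and upwards from 33 to 36 hours (0.99), where ODC1 changed by -0.80, and AZIN1 left it upwards from 6 to 9 hours (0.80).

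The antizymes and the antizyme inhibitor moved in different ways. OAZ1, the main antizyme, was steady, with log2 intensities from 15.64 to 15.83 and a highest over lowest ratio of 1.14. Its deposited intensities of 51494 to 60891 ranked between 27 and 56 on every array, where the brightest row reached 63833 to 68886, and whether its changes are compressed near the top of the scale was not tested. OAZ2, a second antizyme, stood at 10.91 and 10.90 at 0 and 3 hours, 10.53 and 10.49 at 6 and 9 hours, and had its lowest level of 9.92 at 12 hours. Its mean was 10.20 ± 0.23 (SD over 4 time points) for 12 to 21 hours, then 10.40 ± 0.19 for 24 to 33 hours and 10.48 ± 0.05 for 36 to 45 hours. After normalization all arrays from 6 hours on were below those of 0 and 3 hours. The deposited intensity at 30 hours (1918) was not below those of 0 and 3 hours (1914 and 1892).

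AZIN1, which counters antizyme, rose in every step from 0 to 15 hours. Its log2 intensity was 9.20, 9.41, 10.02 and 10.82 at 0, 3, 6 and 9 hours and 11.14, 11.28, 11.03 and 10.88 at 12, 15, 18 and 21 hours. It was then 10.91, 10.82, 10.80 and 10.81 at 24, 27, 30 and 33 hours and 10.49, 10.64, 10.39 and 10.61 at 36, 39, 42 and 45 hours. No array from 6 hours on returned to the levels of 0 and 3 hours. At 0 hours the row was not above background by its detection p (0.211). Its deposited intensity there was 731, on an array with an inferred negative control mean of 196 (SD 44). The row combines several probes, and how its detection p relates to the combined intensity was not tested. The level of 15 hours was 4.2-fold above that of 0 hours. By that detection p, the comparisons of AZIN1 with 0 to 9 hours rest on a window with 3 of 4 arrays above background. The comparison with 0 and 3 hours rests on 1 of 2. Without the 0 hour array the log2 difference was 1.01 at 6 to 9 hours (limma, adjusted p = 0.0021), 1.0 at 12 to 21 hours (adjusted p = 0.0012) and 0.45 at 36 to 45 hours (adjusted p = 0.092).

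The early response was read as 6 and 9 hours against 0 and 3 hours. AZIN1 rose, with a log2 difference of 1.11 (standard error 0.18, limma, adjusted p = 0.00025). The 2 AMD1 probes rose by 0.56 and 1.25 (adjusted p = 0.012 and 0.00052), while OAZ2 had a log2 difference of -0.39 (standard error 0.12, adjusted p = 0.021). Thus 3 of the 9 rows rose and 1 fell. Among all tested rows 24.7% were called, 13.2% higher and 11.5% lower. Under median scaling of the arrays OAZ2 was no longer called (-0.30, adjusted p = 0.13, limma). ODC1 and SRM had differences of 0.24 and 0.31 that did not pass the threshold (adjusted p = 0.14 and 0.085), and SAT1 had a difference of 0.08 with a 95% interval of -0.17 to 0.33. The difference of AZIN1 was 0.71 without the 9 hour array (adjusted p = 0.0026), and that of the brighter AMD1 probe was no longer called without the 3 hour array (0.37, adjusted p = 0.10) or the 9 hour array (0.27, adjusted p = 0.23). That of OAZ2 was not called without the 0 hour array (-0.39, adjusted p = 0.069) or the 9 hour array (-0.37, adjusted p = 0.10), and with each array left out in turn ODC1 ran from 0.11 to 0.38 and SRM from 0.13 to 0.49, with a call for both without the 6 hour array (adjusted p = 0.041 and 0.015).

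At 12 to 21 hours against 0 to 9 hours, transcripts of SRM, SMS and, on its brighter probe, AMD1 rose while that of SAT1 fell. SRM was 1.62-fold higher (log2 difference 0.69, standard error 0.12, adjusted p = 4e-04, limma), AMD1 on its brighter probe 1.54-fold higher (0.63, standard error 0.15, adjusted p = 0.0056) and SMS 1.17-fold higher (0.22, standard error 0.07, adjusted p = 0.019). AZIN1 was 2.33-fold higher (1.22, standard error 0.23, adjusted p = 0.00076). SAT1 changed by -1.24 (standard error 0.14, adjusted p = 9.2e-06) and OAZ2 by -0.50 (standard error 0.13, adjusted p = 0.0062). These are 4 rows that rose and 2 that fell, and of all tested rows 29.5% were called, 15.1% higher and 14.4% lower. The median absolute log2 difference was 0.50 over the 9 rows and 0.21 over all tested rows. ODC1 had a difference of 0.11 with a 95% interval of -0.08 to 0.30 and was not called, although median scaling of the arrays gave 0.30 (adjusted p = 0.036). Under median scaling OAZ2 was no longer called (-0.32, adjusted p = 0.069). The call of SMS was lost without the 0 hour array (0.19, adjusted p = 0.051) or the 21 hour array (0.18, adjusted p = 0.067), and the dimmer AMD1 probe, with a difference of 0.50 (adjusted p = 0.21), was called without the 9 hour array (0.81, adjusted p = 0.015).

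Between 12 to 21 and 24 to 33 hours limma called 0 of the 9 rows at an adjusted p under 0.05, and 3 of all 11957 (0.0251%). At an unadjusted p under 0.05 there was 1 row, SAT1, with a log2 difference of 0.57 (standard error 0.14, adjusted p = 0.32), beside 585 of all tested rows (4.89%).

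At 36 to 45 hours against 24 to 33 hours, transcripts of ODC1, AMD1 and SRM fell and that of SAT1 rose. SMS, AZIN1, OAZ1 and OAZ2 were not called in the fit of all arrays. In log2 units ODC1 fell by 0.96 (standard error 0.09, limma, adjusted p = 6e-07) and SRM fell by 0.95 (standard error 0.12, adjusted p = 1e-05). AMD1 fell by 0.72 on its brighter probe (standard error 0.15, adjusted p = 0.0013) and fell by 1.40 on its dimmer probe (standard error 0.29, adjusted p = 0.00088). SAT1 was 2.92-fold higher (log2 difference 1.54, standard error 0.14, adjusted p = 4.5e-07). Of the 9 rows 4 fell and 1 rose, while of all tested rows 38% were called, 18.7% lower and 19.3% higher. The median absolute log2 difference was 0.72 over the 9 rows and 0.25 over all tested rows. SMS had a difference of -0.16 (adjusted p = 0.077), AZIN1 of -0.30 with a 95% interval of -0.78 to 0.18, OAZ2 of 0.08 (-0.19 to 0.34) and OAZ1 of -0.06 (-0.15 to 0.03). Leaving out any array kept each of the 5 calls, with ODC1 between -1.0 and -0.90 and SAT1 between 1.40 and 1.70, and SMS was called in addition without the 33 hour array (-0.19, adjusted p = 0.048) and under median scaling (-0.36, adjusted p = 0.0016). A fit of the compared arrays alone also called AZIN1 lower (-0.30, adjusted p = 0.0026, limma), and SMS as well (-0.16, adjusted p = 0.047). The sign of OAZ1 turned under cyclic loess, to 0.11 (adjusted p = 0.033).

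**Figure D3:**
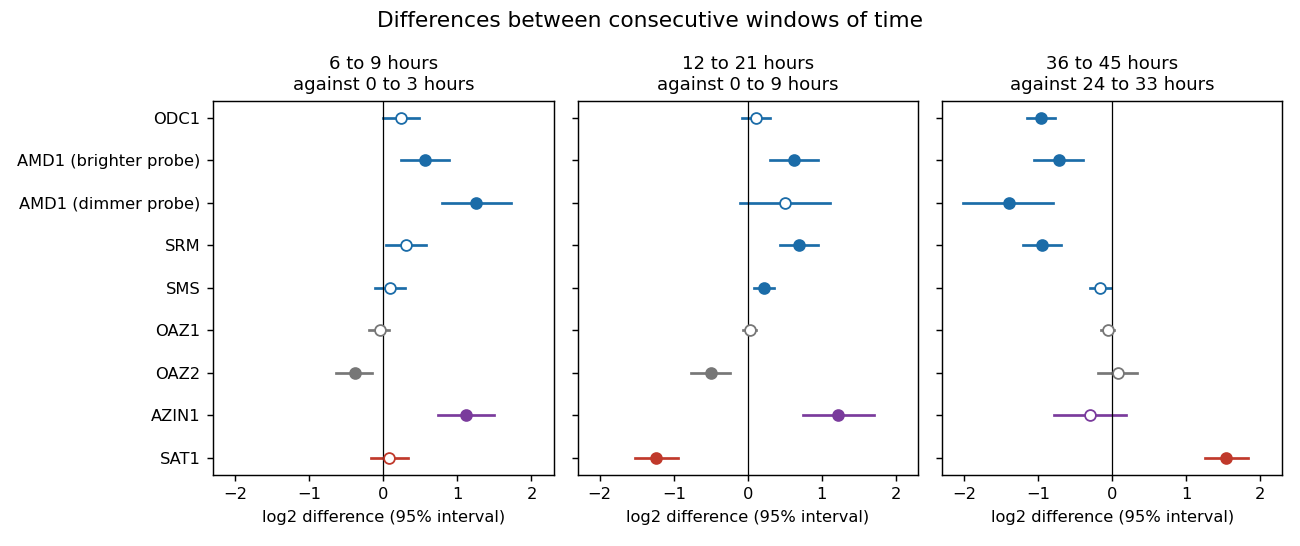
log2 differences of the 9 rows between windows of time in limma fits over all tested rows, with lines for the 95% interval and filled points for an adjusted p under 0.05. In the right panel ODC1, both AMD1 probes and SRM lie between -1.40 and -0.72 and SAT1 at 1.54, and in the middle panel SAT1 lies at -1.24.

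Set end against start, 36 to 45 hours against 0 to 9 hours, ODC1 was lower by a log2 difference of -0.82 (standard error 0.09, adjusted p = 3.6e-06, limma) and SRM by -0.45 (standard error 0.12, adjusted p = 0.0082). The dimmer AMD1 probe was lower (-0.85, standard error 0.29, adjusted p = 0.032) and the brighter one was not called (-0.34, adjusted p = 0.10). SAT1 was 1.84-fold higher (0.88, standard error 0.14, adjusted p = 0.00014) and AZIN1 1.59-fold higher (0.67, standard error 0.23, adjusted p = 0.033). Thus 2 rows were higher and 3 lower, and of all tested rows 31.2% were called, 16.2% higher and 15% lower. SMS, with a difference of 0.02 (95% interval -0.12 to 0.16), and OAZ1, with -0.01 (-0.10 to 0.08), ended near where they began. A second contrast left out the whole difference of 24 to 33 against 12 to 21 hours, which was 0.57 for SAT1 and -0.20 for SRM. There SAT1 had 0.31 (adjusted p = 0.35, limma) and SRM -0.25 (adjusted p = 0.37), and neither was called. The calls of ODC1, SRM and SAT1 in the full contrast held with any array left out. That of the dimmer AMD1 probe was lost without the 6, 9, 39, 42 or 45 hour array (adjusted p = 0.086, 0.10, 0.054, 0.063 and 0.078, with -0.54 without 9 hours) and that of AZIN1 without the 0, 3, 36, 39 or 45 hour array (adjusted p = 0.092, 0.10, 0.054, 0.076 and 0.074), so that 3 rows were called without 39 or 45 hours, and the brighter AMD1 probe ran from -0.49 to -0.15, with a call without the 3 hour array (-0.49, adjusted p = 0.013). Under median scaling SRM was no longer called (-0.31, adjusted p = 0.11), nor was the dimmer AMD1 probe (-0.68, adjusted p = 0.08).

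Across the 16 arrays, which share the same time course, SRM had a correlation of 0.86 with ODC1, 0.92 with the brighter AMD1 probe and -0.95 with SAT1. SMS had a correlation of 0.66 with SRM and of 0.49 with ODC1. AZIN1 had -0.83 with OAZ2 and 0.22 with ODC1. These values describe courses of 16 points in time and are not tests.

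The rows with the course most like that of ODC1, by Pearson correlation over the 16 arrays, were NECTIN1 (0.972), a cell adhesion protein, EIF4A3 (0.971), an exon junction complex helicase, ILF2 (0.968), a double-stranded RNA-binding factor, CYB561D2 (0.961) and TMEM208 (0.955). Their log2 differences of 36 to 45 against 24 to 33 hours lay between -0.96 and -0.45. Those most like SAT1 were KYNU (0.973), an enzyme of tryptophan breakdown, the row with the file's symbol MGC16028 (0.973), LXN (0.972), a carboxypeptidase inhibitor, BNIP3L (0.97), a mitophagy receptor, and LRP10 (0.968), with differences between 0.54 and 1.27.

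The promoters of the enzymes that moved together late in the series are shown with the E-box CACGTG, the palindromic site that MYC binds with MAX, since ODC1 is a well-known MYC target. The windows of 300 bases are from a table of RefSeq promoters (GRCh38.p14), read for 7 of the 8 genes, all but AZIN1. They run from 250 bases before to 50 after a transcript start, 5′ to 3′ on the gene's strand, with each CACGTG in capitals. That of ODC1 is the window of the downstream of its 2 starts in the table (chr2:10447963-10448262, minus strand), that of SRM chr1:11059969-11060268 (minus strand), that of AMD1 chr6:110874535-110874834 (plus strand) and that of SAT1 chrX:23782923-23783222 (plus strand).
ODC1: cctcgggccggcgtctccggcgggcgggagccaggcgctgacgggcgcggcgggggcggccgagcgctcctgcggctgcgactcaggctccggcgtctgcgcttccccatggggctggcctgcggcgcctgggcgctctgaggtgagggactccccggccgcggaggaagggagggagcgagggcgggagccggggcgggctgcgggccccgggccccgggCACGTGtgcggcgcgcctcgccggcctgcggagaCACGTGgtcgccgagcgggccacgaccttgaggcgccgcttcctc
SRM: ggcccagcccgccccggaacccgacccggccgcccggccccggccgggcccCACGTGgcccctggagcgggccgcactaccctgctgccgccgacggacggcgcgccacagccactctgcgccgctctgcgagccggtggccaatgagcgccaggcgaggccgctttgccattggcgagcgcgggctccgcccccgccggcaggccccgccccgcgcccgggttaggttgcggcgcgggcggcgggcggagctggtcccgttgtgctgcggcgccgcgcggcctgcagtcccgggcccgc
AMD1: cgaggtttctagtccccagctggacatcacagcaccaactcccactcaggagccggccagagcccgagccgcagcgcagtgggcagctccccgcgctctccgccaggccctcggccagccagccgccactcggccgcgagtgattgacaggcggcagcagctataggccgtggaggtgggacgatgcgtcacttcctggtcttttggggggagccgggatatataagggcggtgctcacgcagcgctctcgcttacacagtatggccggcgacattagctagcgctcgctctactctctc
SAT1: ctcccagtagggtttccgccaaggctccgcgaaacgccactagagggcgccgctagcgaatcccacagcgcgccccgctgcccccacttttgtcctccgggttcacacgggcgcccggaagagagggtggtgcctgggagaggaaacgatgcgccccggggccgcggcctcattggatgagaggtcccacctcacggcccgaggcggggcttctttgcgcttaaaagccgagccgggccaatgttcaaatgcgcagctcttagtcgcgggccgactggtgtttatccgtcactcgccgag
ODC1 held 2 matches in this window, beginning 29 bases before and at base 6 after the start, and SRM held 1, beginning 199 bases before the start. The window of the upstream ODC1 start and all windows of AMD1, SMS, OAZ1, OAZ2 and SAT1 held 0. Thus 2 of the 7 genes had the motif, against 8.77% of the 27305 genes and 7.26% of the 35116 windows in the table. A match describes letters in the window and not a bound site.

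The MYC network was read next to these promoters. MYC stood at 11.14 at 0 hours and 12.19 at 3 hours and was between 12.21 and 12.67 on all later arrays. Its log2 difference was 0.90 at 6 to 9 against 0 to 3 hours (adjusted p = 0.0039, limma). At the late step, 36 to 45 against 24 to 33 hours, the MYC transcript was not called (-0.04, standard error 0.21, adjusted p = 0.90). Whether MYC or the other genes of the network act on the polyamine genes in these cells was not tested. MXD4, a MAX partner that opposes MYC, ran from 11.66 at 0 hours to 9.53 at 9 hours, stayed between 9.40 and 10.34 from 12 to 33 hours and was between 11.40 and 11.58 from 36 hours on. Its log2 difference at the late step was 1.71 (standard error 0.32, adjusted p = 0.00044). MXD3, of the same family, moved the other way at that step (-0.98, adjusted p = 0.033), and MNT, another repressor that pairs with MAX, had a difference of 0.63 that was not called (adjusted p = 0.090). Of the 10 network genes tested, 5 were time-dependent, beside 54.7% of all tested rows. On the brightest probe of each, 3 were higher and 2 lower at the late step, beside 19.3% and 18.7%. MAX was lower on its brightest probe (-0.42, adjusted p = 0.033, limma), not called on another (-0.34, adjusted p = 0.12) and higher on a dimmer one (0.59, adjusted p = 0.0042). Its probes therefore disagree. MXI1, counted as higher (0.45, adjusted p = 0.016), was above background on 5 arrays.

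Of 40 genes around polyamine metabolism, 35 were on the array, 32 were tested and 16 were time-dependent, a share below the 54.7% of all tested rows. These counts include the MYC network, with 11 of the 40 genes and 10 of the 32 tested. At 12 to 21 against 0 to 9 hours 3 of the 32 rose and 6 fell, beside 15.1% and 14.4% of all tested rows. At 36 to 45 against 24 to 33 hours 5 rose and 5 fell, beside 19.3% and 18.7%. Of these, 3 of the risers and 2 of the fallers were of the MYC network. Of 3 tested genes listed under polyamine breakdown (SMOX, PAOX and SAT2) 2 were time-dependent, a count to be read against the same 54.7%. Spermine oxidase (SMOX) fell by 0.71 at 12 to 21 hours (standard error 0.16, adjusted p = 0.0033, limma), as SAT1 did, but did not return, with a difference of -0.17 at the late step (adjusted p = 0.45) and of -0.88 at the end against the start (adjusted p = 0.00051). OAZ3, the antizyme known from the testis, was not time-dependent, with a difference of 0.27 at the late step (adjusted p = 0.11). PAOX, the oxidase of acetylated polyamines, was not time-dependent (adjusted p = 0.90). SAT2, a relative of SAT1, had a difference of -0.48 at 12 to 21 hours (adjusted p = 0.002) and of 0.73 at the late step (standard error 0.10, adjusted p = 2.7e-05). Its levels ran from 10.19 at 12 hours to 11.42 at 39 hours, and whether SAT2 acts on polyamines in these cells was not tested.

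Among the genes of polyamine transport 4 of 6 tested were time-dependent, beside 54.7% of all tested rows. SLC3A2, a subunit of amino acid transporters that also takes part in putrescine export, fell by 0.90 at 12 to 21 hours (standard error 0.08, adjusted p = 9.5e-07, limma) and was lower at the end than at the start (-1.23, adjusted p = 2.6e-08), and its other tested probe had -1.20 and -1.51. SLC12A8 rose at 12 to 21 hours by 0.75 (adjusted p = 0.011) and was not called at the end against the start (0.08, adjusted p = 0.80). CAV1 was time-dependent (adjusted p = 0.019) with an end against start difference of -0.10 that was not called. In the putrescine supply list OAT, which links ornithine to proline and glutamate, was the time-dependent gene of 3 tested, with a difference of -0.46 at 12 to 21 hours (adjusted p = 0.00096), and AZIN2 was not matched to a row.

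Spermidine is also the substrate for hypusine, the modified lysine of the translation factor eIF5A. DHPS, the enzyme of its first step, rose from a mean of 10.16 at 0 to 9 hours to 10.69 at 12 to 21 hours (log2 difference 0.52, adjusted p = 0.00043, limma) and ended 0.81 above the start (adjusted p = 4.9e-06). DOHH, which completes hypusine, had a difference of 0.02 at 12 to 21 hours and fell by 0.76 at the late step (standard error 0.17, adjusted p = 0.0018). EIF5A itself was not time-dependent (adjusted p = 0.41), and 2 of the 4 tested genes of this list were, beside 54.7% of all tested rows. In the methionine cycle, which supplies AMD1 with its substrate, 2 of 5 tested genes were time-dependent, which is below that share. MAT2B had a difference of 0.30 at the late step on its brighter probe (adjusted p = 0.039) and of -0.34 on its dimmer probe (adjusted p = 0.030), so that its probes disagree, and AHCY had -0.13 (adjusted p = 0.19).

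**Figure D4:**
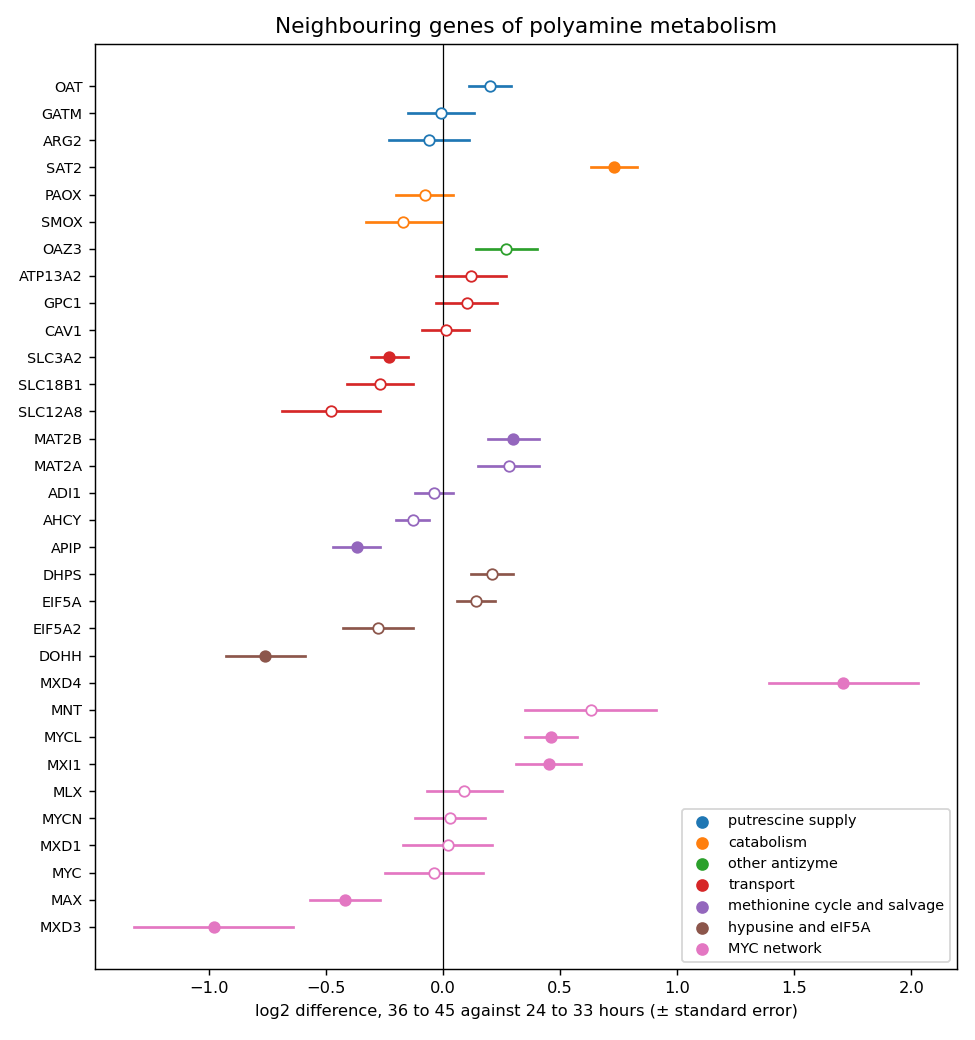
log2 difference of 36 to 45 against 24 to 33 hours for the 32 tested genes around polyamine metabolism, by list, from the brightest probe of each, with lines for the standard error and filled points for an adjusted p under 0.05. MXD4 (1.71) and SAT2 (0.73) lie highest and MXD3 (-0.98) and DOHH (-0.76) lowest, MXD4 and MXD3 being of the MYC network.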

How the data were processed

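RNA of MCF10A cells from 16 time points was hybridized to Illumina human Ref8v2 arrays. The authors deposited 1 table of intensity values on a linear scale, not normalized between arrays, and with each value a detection p-value relative to the array's negative control beads. Their methods state quantile normalization, and the summary software is not given in the sources used here. Rows whose detection p-values came in steps of 1 in 708 on every array (tolerance 0.001 of a step) were taken as single probes (19092), and the rest as combined (1497). From the single-probe rows the negative control level was inferred (166 to 199, SD 35.4 to 44.0), and all rows were corrected with normexp, given an offset of 16, quantile normalized and log2 transformed (R 4.3.3, limma 3.58.1). The offset understates changes of dim rows. Rows above background (detection p under 0.05) on 3 or more arrays were tested with limma (intensity trend, Benjamini-Hochberg over 11957 rows, calls under 0.05): a spline of time with 3 degrees of freedom, 4 windows of 4 time points, and 8 pairs of time points. Windows are not replicates, so their spread also holds change within a window, and p-values measure only the spread between these arrays. The fits were run on simulated rows with independent noise around a flat level and known added changes. That setting differs from this unreplicated series in time, so it does not bear on the p-values given here. The most alike arrays, 27 and 30 hours, had r = 0.996, and 0 pairs held identical values. The members, lists and named genes were chosen with earlier results of these data known. Named were all members, up to 3 time-dependent genes of each list with the largest change from the first to the last window, AZIN2, SMOX, PAOX and MYC, and the 5 rows most like ODC1 and SAT1. EIF5A and OAZ3 were named after their values were seen, and MAX and MXI1 were also named outside this rule. File symbols were updated through RefSeq (GRCh38.p14) where current (13336 of 18190) or a synonym of 1 gene (3240). Alternatives covered background correction, offset, scaling, filter, trend, curve, arrays in the fit and each array left out. Figures were drawn with matplotlib 3.10.9.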

Additional observations from a re-analysis of the deposited data

How the results depend on the processing

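The number of member rows called at 36 to 45 against 24 to 33 hours (5) and at 12 to 21 against 0 to 9 hours (6) stayed within 1.5 times under every alternative run, and that of 24 to 33 against 12 to 21 hours stayed at 0. The 8 time-dependent rows became 1, ODC1, when time entered as a straight line, which by construction cannot follow a rise and a return. The 5 rows called at 36 to 45 against 0 to 9 hours became 3 under median scaling and 3 in a fit of the compared arrays alone. They became 1 when the whole difference of 24 to 33 against 12 to 21 hours was left out of the contrast. There SAT1 had 0.31 (adjusted p = 0.35, limma) and SRM -0.25 (adjusted p = 0.37). The 4 rows called at 6 to 9 against 0 to 3 hours became 2 in a fit of the compared arrays alone. With each array left out in turn the counts ran from 3 to 5 at 36 to 45 against 0 to 9 hours, from 2 to 6 at 6 to 9 against 0 to 3 hours, from 5 to 7 at 12 to 21 against 0 to 9 hours, from 5 to 6 at 36 to 45 against 24 to 33 hours and from 7 to 8 for the spline. Over all tested rows, the fit of the compared arrays alone called 2474 in place of 3729 at 36 to 45 against 0 to 9 hours. It called 2178 in place of 3530 at 12 to 21 against 0 to 9 hours and 884 in place of 2956 at 6 to 9 against 0 to 3 hours. The contrast without the difference of 24 to 33 against 12 to 21 hours called 1617. OAZ1 changed sign at 36 to 45 against 24 to 33 hours under cyclic loess (0.11). Of the single-row results under the other alternatives, 418 stayed on their side of the threshold, where values that were not called could change sign, 21 lost a call, 4 gained one and 1 reversed. Apart from the straight line, the cause of these changes was not tested. A chip as a block was not run, since the headers name no chip. No paired analysis was possible because each time point has 1 array and the time points share fewer than 2 replicate numbers. Rows near background and, for OAZ1, near the top of the scale limit what can be read.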
